A study of Drosophila melanogaster with 19 samples.

Results

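The genes described here are 10 genes of the Drosophila melanogaster sex determination pathway, namely Sxl, snf, vir, fl(2)d, tra, tra2, her, dsx, ix and fru. They were chosen by name from 13922 protein-coding genes of the X and the autosomal arms (2L, 2R, 3L, 3R and 4). A peak was counted at a gene when its summit lay in the gene or within 1000 bases of it, and where there was none the nearest peak was described. The measurements are chromatin immunoprecipitation sequencing (ChIP-seq) peaks of MSL2, the male-specific subunit of the dosage compensation complex. Chromatin came from whole adult males aged 3 days, with 1 listed sample of wt males and 1 of males of the M1[wt] line. Both are labelled as Oregon-R strain, and the sources used here do not describe the construct that M1[wt] stands for. The series contains 19 samples and concerns the N-terminal part of MSL1, the scaffold subunit of the complex.

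In females Sxl, an RNA-binding protein, directs the splicing of tra, and the Tra and Tra2 proteins direct the splicing of dsx and fru into their female forms. Without this chain the male forms of dsx and fru are made, which shape the male body and male courtship. Sxl also blocks the translation of msl-2 in females, so the protein precipitated here is normally made only where functional Sxl is absent. The flies measured were males, in which Sxl and tra are transcribed but give no functional protein.

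The wt list held 3788 peaks on these chromosomes and the M1[wt] list 3935, each with the −log10 p the authors' processing gave it, called strength here. Each peak carried a value from each of 2 replicate calls, and the strength is the lower of them. The median strength of all peaks was 22.5 in the wt list (quartiles 13.1 and 53.2) and 35.1 in the M1[wt] list (19.1 and 88.7). Strength grows with read depth, which is unknown here, so strengths and ranks are given side by side and differences between the lists are not read as changes in binding. With 1 sample per group and a chosen list of genes no test was made. Left and right are used for the ends of a gene with the lower and higher coordinate, since strand was not used, and coordinates are those of Release 6 (dm6). The comparison asked where MSL2 peaks lay at these genes and whether the lists placed them alike.

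Of the 10 genes 8 had an MSL2 peak in at least 1 list. In wt males 5 of the 10 genes had a peak, which were Sxl, her, dsx, ix and fru. In M1[wt] males 7 of the 10 had one, which were Sxl, snf, fl(2)d, tra2, dsx, ix and fru. Sxl, dsx, ix and fru had a peak in both lists, and vir and tra had none in either. Of the 8 autosomal genes, 4 had a peak in wt males, where 22.3% of 11725 autosomal protein-coding genes did, and 5 in M1[wt] males, where 24.1% did. A peak in both lists was found at 3 of these 8 genes and at 18.3% of autosomal protein-coding genes. Of the X-linked genes Sxl and snf, only Sxl had one in wt males, where 53.7% of 2197 X-linked protein-coding genes did, and both had one in M1[wt] males, where 52% did. Over X-linked genes 46.1% had a peak in both lists.

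Long genes hold a summit more often, and the genes of the pathway differ widely in length. The autosomal genes fru (131 kb) and dsx (43.1 kb) belong to the class of over 30 kb, in which 43.1% of genes had a peak in wt males and 40.9% in the M1[wt] line. The gene vir (6.16 kb) belongs to the class of 5 to 30 kb, in which 39.2% and 40.4% had one. The other autosomal genes, tra, tra2, her, ix and fl(2)d, are under 5 kb, a class with 16.7% and 18.8%. On the X, Sxl (23.5 kb) lies in the class of 5 to 30 kb with 71.1% and 70.5%, and snf (1.26 kb) in that under 5 kb with 47.3% and 44.3%. With so few genes in each class these shares serve as background, and no excess at the sex determination genes is read from them. Exons and introns were not used here.

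**Figure D1:**
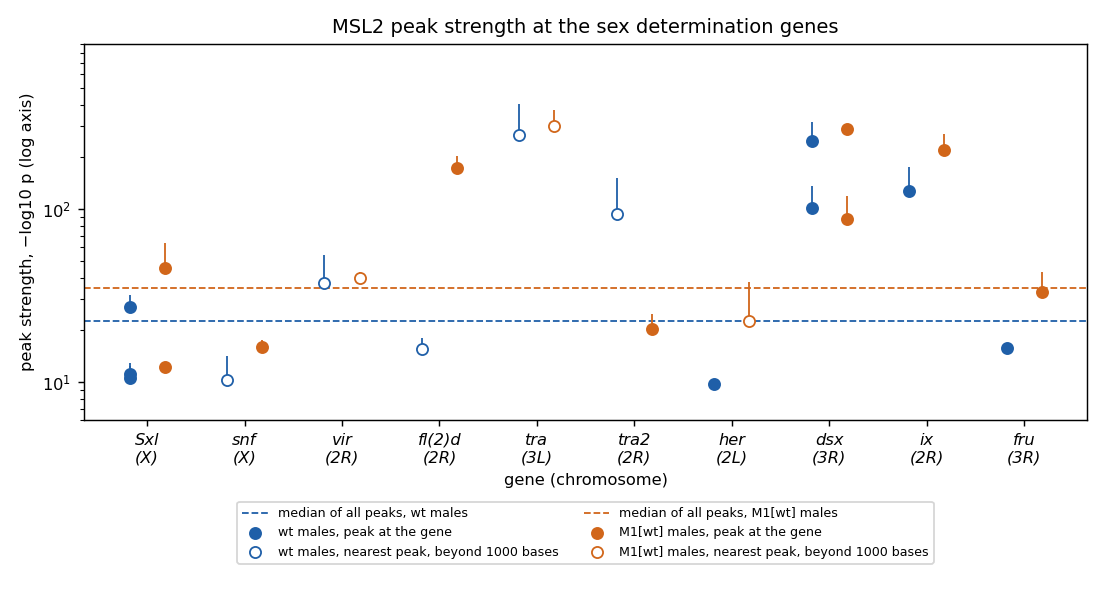
Strength (−log10 p, log axis) of the MSL2 peaks at each gene in wt males (blue) and M1[wt] males (orange). Filled points are peaks in the gene or within 1000 bases, open points the nearest peak where there is none, thin lines run to the higher replicate call, and dashed lines are the medians of all peaks of each list (22.5 and 35.1). The strongest filled points are at dsx (248 and 291) and ix (127 and 220) in both lists and at fl(2)d (172) in M1[wt] males alone.

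The strongest peaks of the group lay at dsx, the transcription factor gene at the end of the somatic pathway. The dsx gene (3R:7924323-7967408, locus tag Dmel_CG11094) held 2 peaks in each list, all with summits inside the gene and in its right-hand end. The stronger lay at 3R:7966905-7967952 in wt males, with its summit 157 bases from the right end of dsx and a strength of 248 (replicate calls 317 and 248). In M1[wt] males it lay at 3R:7966887-7968256, with its summit 140 bases from that end and a strength of 291 (calls 291 and 298). These summits were 17 bases apart, so the lists placed the peak at the same end of dsx. It ranked 23 of the 652 wt peaks on 3R and 29 of the 709 M1[wt] peaks there, and 232 and 332 over all chromosomes. It was stronger than the strongest peak at 95.2% of the autosomal genes that had one in wt males, and at 94.4% in M1[wt] males.

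The second dsx peak lay 4468 bases inside the right end in wt males (3R:7962623-7963940, strength 102, calls 135 and 102). In M1[wt] males it lay 4466 bases inside it (3R:7962628-7963935, strength 87.2, calls 87.2 and 119). The summits were 2 bases apart, and they sat 89.6% of the way along the gene from its left end. Genes with at least 2 peaks made up 4.10% of autosomal protein-coding genes in wt males and 4.41% in the M1[wt] line. These shares cover genes of all lengths and were not taken for genes as long as dsx (43.1 kb). The start or end of every other protein-coding or lncRNA gene lay at least 7141 bases from the dsx summits.

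The second strongest gene in wt males was ix, which encodes a subunit of the Mediator complex (Med29) that acts together with the female form of Dsx. The ix gene (2R:11359437-11360163) had 1 peak in each list, at 2R:11358892-11360089 in wt males (strength 127, calls 176 and 127, rank 419) and 2R:11358743-11360135 in M1[wt] males (strength 220, calls 220 and 270, rank 426). Both intervals covered most of this gene of 727 bases, but the summits lay outside it, 219 and 212 bases to its left and 7 bases apart. The right end of the neighbour CG12384 was closer, at 42 bases in wt males and 49 bases in M1[wt] males, so the summit lies in the gap between CG12384 and ix. Its strength exceeded the strongest peak of 87.4% and 91.5% of the autosomal genes with a peak.

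The third gene of the last step is fru, which encodes zinc-finger transcription factors of male courtship. The fru gene (3R:18414273-18545586) had 1 peak in each list, and these were not the same peak. In wt males it lay at 3R:18434369-18434936 (strength 15.8, calls 16.1 and 15.8, rank 2488), 20549 bases from the left end. In M1[wt] males it lay at 3R:18436841-18437303 (strength 33.3, calls 33.3 and 43.3, rank 2037), 22798 bases from the left end. The summits were 2249 bases apart and the intervals were separated by 1904 bases, so fru had a peak in both lists with no overlap. Both were below the median strength of their list, and the remaining length of the gene to the right held no summit in either list.

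A stronger shared peak lay just outside the limit of 1000 bases at fru. Its summit lay 1393 bases left of fru in wt males (3R:18412266-18413162, strength 114) and 1388 bases left of it in M1[wt] males (3R:18412251-18413156, strength 90.2). These summits were 5 bases apart, and they lay 6 and 11 bases from the right end of CG31122. In both lists the peak thus sat at the right end of CG31122, in the gap before fru.

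**Figure D2:**
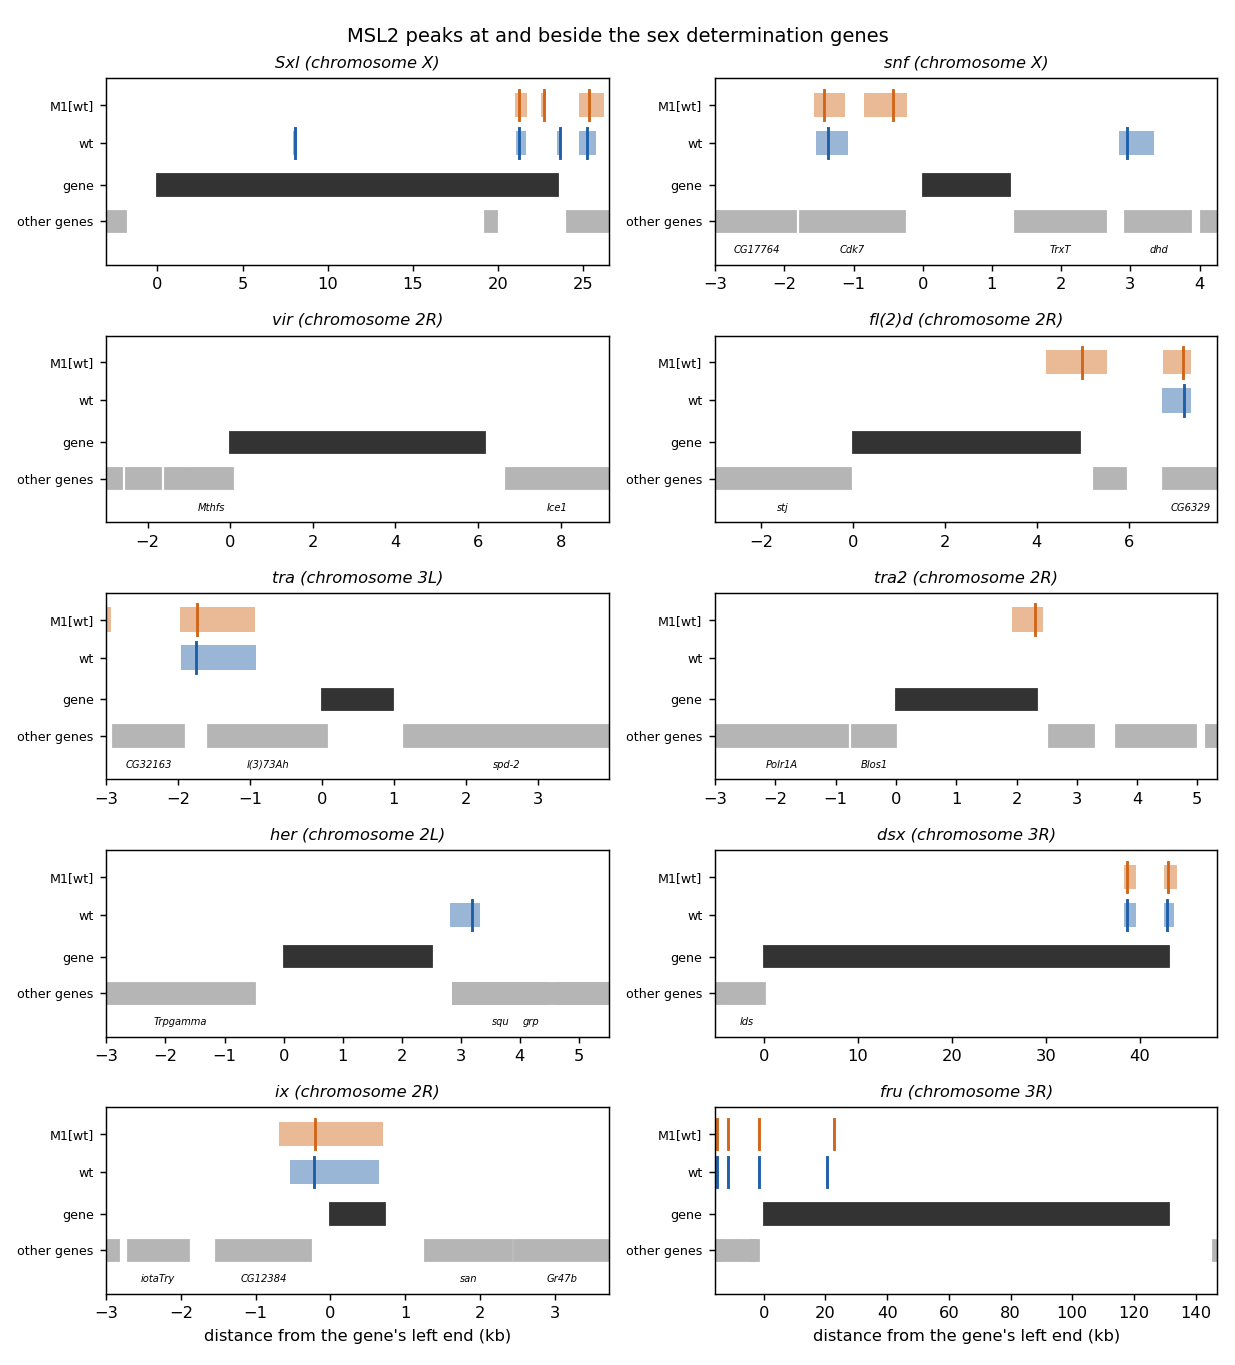
Maps of the 10 genes, with the distance from the gene's left end in kb on the horizontal axis. The gene is the dark bar, and other protein-coding and lncRNA genes are grey. Peaks (shaded, with a line at the summit) are blue for wt males and orange for M1[wt] males. Within 1000 bases of the genes, peaks coincide between the lists at dsx, ix and 1 place in Sxl, and differ at snf, fru, fl(2)d, tra2 and her. Farther out, shared peaks lie beside tra, snf, fl(2)d, fru and Sxl.

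At the head of the pathway, the X-linked gene Sxl (X:7074550-7098053, locus tag Dmel_CG43770) had 3 peaks in wt males and 2 in the M1[wt] line. At least 2 peaks were found at 27.9% of X-linked protein-coding genes in wt males and at 25.2% in M1[wt] males. These shares, too, cover genes of all lengths, and Sxl is 23.5 kb long. All but 1 of the Sxl peaks lay in the last 10% of the gene toward its right end or just beyond it. Of these peaks 1 was shared. It lay at X:7095631-7096191 in wt males (strength 11.1, calls 11.1 and 12.8) and at X:7095558-7096245 in M1[wt] males (strength 45.3, calls 45.3 and 63.8), with summits 15 bases apart and 90.3% of the way along the gene. This was the strongest Sxl peak in M1[wt] males, at rank 1658 of the list, whereas in wt males it ranked 3211.

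The strongest Sxl peak in wt males, X:7098007-7098264 (strength 27.0, calls 31.9 and 27.0, rank 1634), had no counterpart in the M1[wt] list. Its summit lay 111 bases beyond the right end of Sxl and 414 bases from the left end of CG4615. The nearest M1[wt] peak, X:7097066-7097362 (strength 12.2, calls 12.2 and 12.9, rank 3740), was the second Sxl peak of that list and ended 644 bases before it. The third wt peak, X:7082493-7082761 (strength 10.6, rank 3326), lay 8065 bases from the left end, and the nearest M1[wt] summit was 13152 bases away. Against other X-linked genes with a peak, the strongest Sxl peak exceeded 40.2% in wt males and 41.3% in the M1[wt] line, so Sxl stood below the middle of these genes in both lists.

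Further genes of the group, snf, fl(2)d and vir, act on the splicing of Sxl. The X-linked gene snf (X:5309242-5310501) encodes a protein of the U1 and U2 small nuclear ribonucleoproteins. In M1[wt] males a peak of low strength (15.9, calls 15.9 and 17.5, rank 3312) lay at X:5308396-5309012, with its summit 425 bases left of snf and inside the kinase gene Cdk7, 166 bases from its right end. In wt males the nearest peak to snf, X:5307693-5308159 (strength 10.3), had its summit 1362 bases to the left, also inside Cdk7. The M1[wt] list had a peak there too, X:5307670-5308124 (strength 15.5), with its summit 63 bases away. The lists therefore shared the peak farther from snf, and the nearer one was found in M1[wt] males alone.

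The gene fl(2)d (2R:13819624-13824553) encodes a subunit of the RNA methyltransferase complex that makes m6A. It had the strongest peak of the group that was present in a single list. In M1[wt] males the peak at 2R:13823830-13825157 had a strength of 172 (calls 172 and 203) and ranked 554, and 69 of the 539 peaks on 2R. Its summit lay 63 bases beyond the right end of fl(2)d and 242 bases from the left end of CG13339, and its strength exceeded that of 86.5% of autosomal genes with a peak. No wt peak overlapped it, and the nearest wt interval was 1192 bases away. The peaks farther out were shared, with summits 2269 bases from fl(2)d in wt males (strength 15.4) and 2248 bases in M1[wt] males (20.6), 21 bases apart and inside CG6329. A peak missing from a list does not measure a lack of binding, because a list keeps a peak only where both of its replicate calls passed.

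The gene vir (2R:23360192-23366355), which encodes another subunit of that complex, had no peak in either list. The nearest summits lay 10481 bases to its right in wt males (2R:23376547-23377069, strength 37.2) and 10459 bases to its right in M1[wt] males (2R:23376369-23377158, strength 39.8). They were 22 bases apart and lay inside Golgin245, near its right end. Autosomal genes without a peak had a median distance of 15438 bases to the nearest summit in wt males and 14904 bases in M1[wt] males, so vir lay nearer to a summit than the typical gene without a peak.

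The middle of the pathway had weak peaks or none at the genes themselves. The gene tra (3L:16590059-16591050) encodes the female splicing regulator and had no peak by the limit of 1000 bases in either list. A strong shared peak lay just beyond it, with its summit 1755 bases to the left in wt males (3L:16588101-16589135, strength 268, calls 407 and 268, rank 216) and 1743 bases in M1[wt] males (3L:16588083-16589129, strength 303, calls 303 and 376, rank 319). The summits were 12 bases apart and lay in the gap between CG32163 and l(3)73Ah, 161 bases from the right end of CG32163 in wt males and 159 bases from the left end of l(3)73Ah in M1[wt] males. The intervals ended 924 and 930 bases short of tra. This was a higher strength than at any of the 10 genes, yet the peak lies at the ends of the neighbouring genes, with most of l(3)73Ah between it and tra.

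The gene tra2 (2R:14602004-14604337), whose protein binds RNA together with Tra, had a peak in M1[wt] males alone. The peak at 2R:14603930-14604450 (strength 20.3, calls 20.3 and 24.8, rank 2832) had its summit inside tra2, 21 bases from the right end and 233 bases from the left end of CG12868. The nearest wt summit lay 13810 bases to the right of tra2 (2R:14617710-14618352, strength 93.4), 29 bases from the right end of Su(var)2-HP2.

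The gene her (2L:16677185-16679691), which encodes a zinc-finger protein needed for sex differentiation, had a peak in wt males alone. The peak at 2L:16679995-16680516 had a strength of 9.71 (calls 9.71 and 9.92), and its rank of 3488 was the lowest of all peaks at the 10 genes in the wt list. Its summit lay 684 bases to the right of her, inside the overlapping genes grp and squ and 321 bases from the left end of grp. No M1[wt] summit lay nearer than 27948 bases to her (2L:16707398-16707795, strength 22.6). With its summit 684 bases away, her was the gene closest to the limit from inside, and snf in wt males, at 1362 bases, was the closest from outside.

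**Figure D3:**
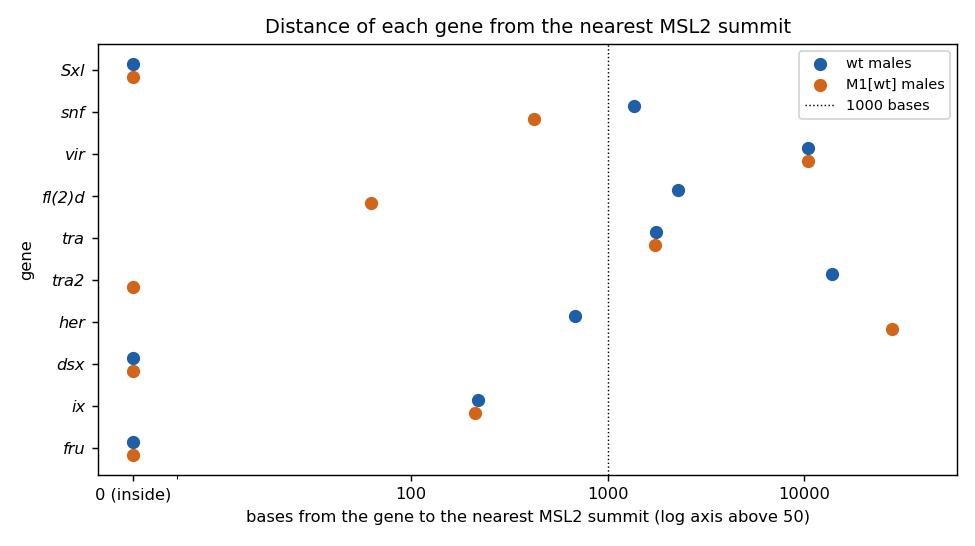
Distance in bases from each gene to the nearest MSL2 summit (log axis above 50, with 0 for a summit inside the gene) in wt males (blue) and M1[wt] males (orange); the dotted line marks 1000 bases. The lists give close distances at Sxl, vir, tra, dsx and ix and differ at snf (1362 and 425), fl(2)d (2269 and 63), tra2 (13810 and 0) and her (684 and 27948). At fru both distances are 0 but come from different peaks, with summits 2249 bases apart.

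The lists agreed in part on the peaks at these genes. Of the 8 wt peaks at the 10 genes 4 shared 1 base or more with an M1[wt] peak, against 74.4% of all wt peaks, and of the 9 M1[wt] peaks 4 overlapped a wt peak, against 69.1% of all M1[wt] peaks. The shared peaks were both peaks of dsx, the ix peak and 1 of the Sxl peaks. Their summits lay between 2 and 17 bases apart. Of the peaks without a counterpart, the fl(2)d peak of 172 in M1[wt] males and the Sxl peak of 27.0 in wt males were above the median strength of their list, and the rest were below it. A male preimmune sample served as the control of both lists, per their names, and its part in the overlap was not tested.

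Among 2819 wt peaks with an overlapping M1[wt] peak, 80.3% had the higher strength in the M1[wt] list, with a median ratio of 1.53. The stronger dsx peak, the ix peak and the Sxl peak were likewise higher in the M1[wt] list. The second dsx peak, with 102 in wt males and 87.2 in the M1[wt] line, went the other way. Of the 8 wt peaks at these genes 6 had the higher value in the first replicate call, as did 3104 of all 3788 wt peaks. None of the 9 M1[wt] peaks did, and 838 of all 3935 M1[wt] peaks did.

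**Figure D4:**
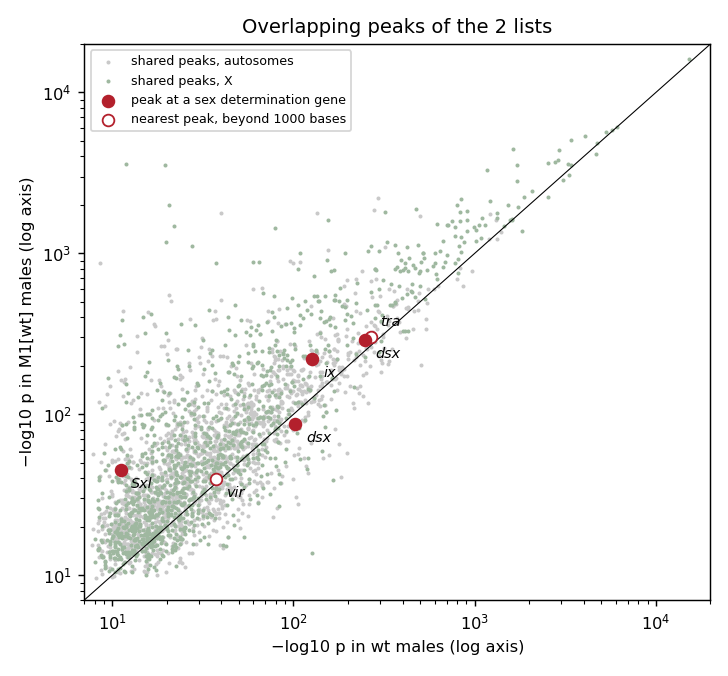
Strength (−log10 p, log axes) of wt peaks and of the strongest M1[wt] peak that overlaps each, with autosomal peaks in grey and X peaks in green. The line marks equal values. Filled red points are the shared peaks at dsx, ix and Sxl, open red points the shared nearest peaks of tra and vir, which lie beyond 1000 bases; the Sxl point (11.1 and 45.3) lies farthest above the line among the red points.

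Other genes of the pathway were looked up in 5 lists of 46 genes in all. A peak lay at 23 of the 35 autosomal genes in wt males and at 20 in M1[wt] males. On the X it was 4 of 11 in each list. Over all protein-coding genes the shares were 22.3% and 24.1% on the autosomes and 53.7% and 52% on the X. Of the 17 autosomal genes under 5 kb 8 had a peak in each list, beside 16.7% and 18.8% of all autosomal genes of that length. Of the 12 of 5 to 30 kb 9 and 7 had one, beside 39.2% and 40.4%, and of the 6 over 30 kb 6 and 5 had one, beside 43.1% and 40.9%. Of the 8 X-linked genes under 5 kb 2 had one in each list, beside 47.3% and 44.3% of all X-linked genes of that length. Of the 2 X-linked genes of 5 to 30 kb 1 had one in each list, beside 71.1% and 70.5%. The 1 X-linked gene over 30 kb had one in each list. The lists were chosen by name, with earlier results of these data known. Neither the higher counts on the autosomes nor the lower count on the X was tested. The genes named below are those with the highest strength in either list, and values are given for wt males first. Some of the strongest summits lay outside the gene, as at SF2 (275 and 240 bases), how (298 and 291), nanos (352 and 330) and HDAC1 (580 and 575). Whether another gene's end lay nearer to them was not looked up.

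SR proteins act with Tra and Tra2 on splicing, and the kinase Doa phosphorylates SR proteins. Of the genes of these proteins, 5 of 5 had a peak in wt males and 4 of 5 in M1[wt] males, where Doa had none. All 5 are autosomal, and 22.3% and 24.1% of all autosomal protein-coding genes had a peak. These shares cover genes of all lengths. The strongest were at x16 (strength 144 in wt males and 150 in the M1[wt] line), B52 (139 and 183) and SF2 (55.4 and 116). This differs from tra and tra2 themselves, which had a weak peak in 1 list or none within the limit, but the difference was not tested.

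Among genes that count the X chromosomes or act on the early Sxl promoter, 4 of 10 had a peak in wt males and 5 of 10 in M1[wt] males. Of the 5 X-linked genes of this list, sisA, sc, upd1 and run had none in either list, and hop, the JAK kinase gene, had 1 in wt males (30.5) and 4 in the M1[wt] line (up to 16.5), beside 53.7% and 52% of all X-linked genes with a peak. On the autosomes 3 and 4 of 5 had one, beside 22.3% and 24.1% of all autosomal protein-coding genes. The highest strengths in either list were at gro, a corepressor gene (60.9 and 65.8), Stat92E, the JAK/STAT transcription factor gene (40.9 and 28.8), and emc, the gene of an inhibitor of bHLH proteins (17 and 41.8).

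Of 11 genes of m6A writers, readers and splicing partners of Sxl, 6 had a peak in wt males, 5 in M1[wt] males and 3 in both. On the autosomes it was 4 and 3 of 9, beside the shares of 22.3% and 24.1%. On the X it was 2 of 2 in each list, beside 53.7% and 52%. Over all protein-coding genes 18.3% on the autosomes and 46.1% on the X had a peak in both lists. The strongest peak of these 11 genes lay beside Flacc, an X-linked gene of the m6A complex. Its summits lay 779 and 773 bases outside Flacc, with strengths of 503 and 884. Others lay at U2af50, the large subunit gene of the splicing factor U2AF (126 and 62.4), and at Hakai, which encodes a further subunit of the m6A complex (66.4 and 88.4).

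Of 5 targets of Sxl and genes of its cofactors, 4 had a peak in both lists. These were how, which encodes an RNA-binding protein (248 and 214), nanos (108 and 120), Unr, whose protein represses msl-2 translation together with Sxl (37.2 and 134), and N, the Notch receptor gene (53.4 and 25.8). Of the 4 autosomal genes among the 5, 3 thus had a peak in both lists, and the X-linked N did too. Over all protein-coding genes the share with a peak in both was 18.3% on the autosomes and 46.1% on the X. The gene msl-2 itself had none in either list.

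Of 15 targets and partners of dsx and fru, 8 had a peak in wt males and 6 in the M1[wt] line. All of these were among the 12 autosomal genes, beside 22.3% and 24.1% of all autosomal protein-coding genes. Among the 15 genes the highest strengths in either list were at Abd-B (217 and 109), lola (54.9 and 264) and HDAC1 (30.0 and 98.0). Abd-B is the Hox gene of the posterior abdomen. In wt males retn, which encodes a DNA-binding protein, had a peak of 38.4, above that at HDAC1, and it had none in the M1[wt] list. The X-linked yolk protein genes Yp1, Yp2 and Yp3, targets of Dsx that are expressed in females, had none in either list, where 47.3% and 44.3% of all X-linked genes under 5 kb had one.

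**Figure D5:**
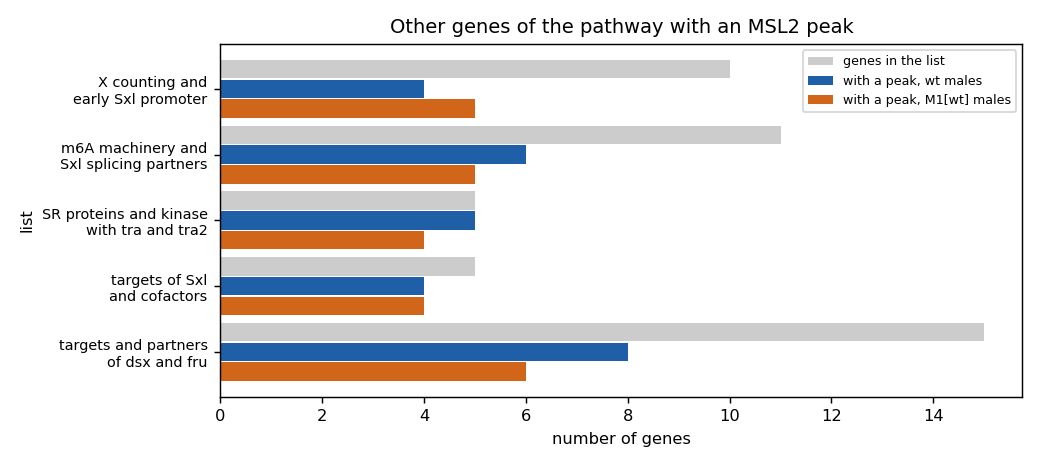
Number of genes in each of 5 lists of other pathway genes (grey) and number with an MSL2 summit in the gene or within 1000 bases in wt males (blue) and M1[wt] males (orange). Genes of SR proteins and Doa had peaks at 5 and 4 of 5, while the X counting list had them at 4 and 5 of 10. Over all protein-coding genes the shares were 22.3% and 24.1% on the autosomes and 53.7% and 52% on the X.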

How the data were processed

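Peaks of MSL2 in wt males and M1[wt] males were analysed, with 1 listed sample in each group, grouped by title. MACS2, deepTools, Picard, Bowtie2 and cutadapt are listed without roles, per the submitters' processing notes, as are the builds dm3 and dm6. The names of the lists give a male preimmune sample as the control of both. Each list the authors deposited has 20 columns in the layout of the irreproducible discovery rate (IDR) method for 2 replicate calls, whose origin is not stated. The −log10 p deposited for a peak is the lower of the values of the replicate calls. Other deposited columns hold the −log10 of the IDR, with a global limit of 0.05, and a score scaled from it. Sequencing depth is unknown. The p-values behind the peaks are the authors' and served to describe and rank peaks within a list.

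Peaks on other sequences (11 in wt and 9 in M1[wt]) were left out, and ranks run over the rest. Gene positions came from a RefSeq gene table of Release 6, and coordinates are 1-based. The lists were taken to be in that build, dm6, because the strongest summit of each lay inside lncRNA:roX1 as the table places it. All 10 genes and the 46 other pathway genes were matched, with nanos under its full name, and 1 planned gene is not reported here. Strand and sequence were not used here, so promoters were not told from gene ends and planned motif searches were not run. The rule for named genes was all 10 genes, up to 3 genes with the strongest peak per pathway list, and neighbours nearer to a summit. The genes sisA, sc, upd1, run, Yp1, Yp2 and Yp3 (without a peak) and hop, retn and N (small counts or ranks) are named besides, chosen after their values were seen. The genes and lists were chosen with earlier results of these data known. Alternatives varied the window, the peak threshold, the overlap and the replicate call. The assignment was tested on simulated data. Python 3.11.15 with pandas 2.3.3 was used.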

Additional observations from a re-analysis of the deposited data

How the results depend on the processing

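The number of the 10 genes with a peak depends on the window and the threshold, and the changes follow from fewer or more peaks being allowed. With summits inside the gene alone it was 3 in wt males (Sxl, dsx and fru) and 4 in M1[wt] males (these and tra2). In wt males it was 3 with no other gene end nearer to the summit, and 3 with a global IDR of 0.001 or less. With a strength of at least 50 it was 2 in wt males, 3 in M1[wt] males and 2 in both, since only dsx, ix and, in M1[wt] males, fl(2)d remained. At that strength the share of all protein-coding genes was 7.39% and 11.2% on the autosomes and 22.5% and 28.4% on the X (wt males first). With a window of 5000 bases it was 8 in wt males and 7 in both lists. A wider window takes in more of all genes as well, and the share of all protein-coding genes was not taken at 5000 bases. Nor was it taken for a global IDR of 0.001 or with no other gene end nearer. Under windows of 500 and 2000 bases, interval overlap and a global IDR of 0.01 or less, all counts stayed within 1.5 times those given. The 4 shared peaks of each list were also shared with summits within 100 or 250 bases and with an overlap of 50% of the shorter interval. With either replicate call alone all 34 strengths stayed within 1.5 times. For each peak 1 of these 2 values is the strength itself, so only the higher call could differ. The share of autosomal protein-coding genes with a summit inside them was 9.89% in wt males and 10.4% in the M1[wt] line. For X-linked protein-coding genes it was 39.0% and 37.3%. No paired analysis was possible because each group has 1 sample and no result comes from a test.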

Other observations

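Summits in the wider surroundings of the genes were counted too. Within 50 kb of each gene or inside it, vir had 2 summits in wt males and 1 in the M1[wt] line, her and tra had 3 in each list, and the median over autosomal genes was 3 in both. On the X, Sxl had 9 in wt males and 10 in the M1[wt] line and snf 8 and 5, where the median over X-linked genes was 10.0 in each. The counts at dsx (6 and 5) and fru (8 and 9) take in the length of these genes, and most of those at fru lay outside it, since fru itself held 1 summit in each list.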
